A study of Sus scrofa with 6 samples.

Results

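PTPN13 is the host gene of 32 of the 2552 exonic circular RNAs (circRNAs) in the table analysed here, which listed 4350 circRNAs in all and 659 host genes of exonic circRNAs. The 32 members were selected on the host gene name given in the table. PTPN13 itself was chosen by its large number of listed circRNAs, and all exonic circRNAs of the table have 1 or more reads in Piglet-D30 replicate 1. A read in that library is therefore a condition of being listed and not a finding, so the edgeR tests between the ages are given with and without that library. Counts, shares and sites pooled over the libraries include it. The libraries were made from testes of Landrace boars. The Piglet-D30 group is 3 young boars at postnatal day 30, and the Adult-D210 group is 3 sexually mature boars at day 210, with 1 library per boar. Total RNA was depleted of ribosomal RNA and treated with RNase R, an enzyme that digests linear RNA, so the linear PTPN13 transcript was not measured. No treatment or genotype separates the groups, and age, tissue composition and body growth cannot be told apart in them.

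PTPN13 is a large cytoplasmic protein tyrosine phosphatase with a KIND domain, a FERM domain, a run of PDZ domains and a phosphatase domain at its carboxyl end, and it is known for binding the death receptor FAS and for acting on ephrin-B ligands. Exonic circRNAs form when a splice donor is joined back to an acceptor upstream of it, a reaction called back-splicing, so each one is defined by its acceptor exon, where the circle starts, and its donor exon, where it ends. A gene with many exons can give many such pairs, and circles that share an end may compete for the same splice site.

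The unit of the counts is 1 read across the back-splice junction of a circRNA. The table held 33091, 18445 and 18618 such reads in Piglet-D30 replicates 1 to 3. It held 23583, 14305 and 12701 in Adult-D210 replicates 1 to 3. PTPN13 had 407, 229 and 180 of them in the Piglet-D30 libraries against 73, 71 and 35 in the Adult-D210 libraries, 995 reads in all. The depth for this gene was thus lowest in Adult-D210 replicate 3, where 3 reads are 8.57% of the gene's reads, against 0.737% in Piglet-D30 replicate 1. Intervals cover counting error only, because 1 RNA molecule can give several reads after amplification.

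All 32 circRNAs were assigned to 1 annotated transcript on the minus strand of chromosome 8 and lay between 141374276 and 141535238, counted from 1 on the assembly Sscrofa10.2 that the submitters' processing notes name, a span of 160963 nt. The exon count and the flanking introns listed for each circRNA put the exons in order in 3 separate runs, with 0 conflicts between circRNAs. Taking neighbouring boundaries less than 1000 nt apart as 1 exon made 2 joins between these runs and gave 48 exons in 1 numbering, which rests on that rule. Exon 1 here is the most upstream exon listed, which need not be the first of the transcript. The circles drew on exons 2 to 47. Both boundaries were listed for 16 exons, from 56 to 564 nt long, and exon 7 was the longest of these. The median circRNA had 4 exons, the same as over all exonic circRNAs of the table, with a range of 1 to 11. Single exons made 2 of the circles, circRNA10454 from exon 3 (179 nt) and circRNA10448 from exon 7 (564 nt). The introns beside the back-splice sites ran from 406 to 48191 nt, with a median of 3601 nt in PTPN13 and 4830 nt over the table.

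**Figure D1:**
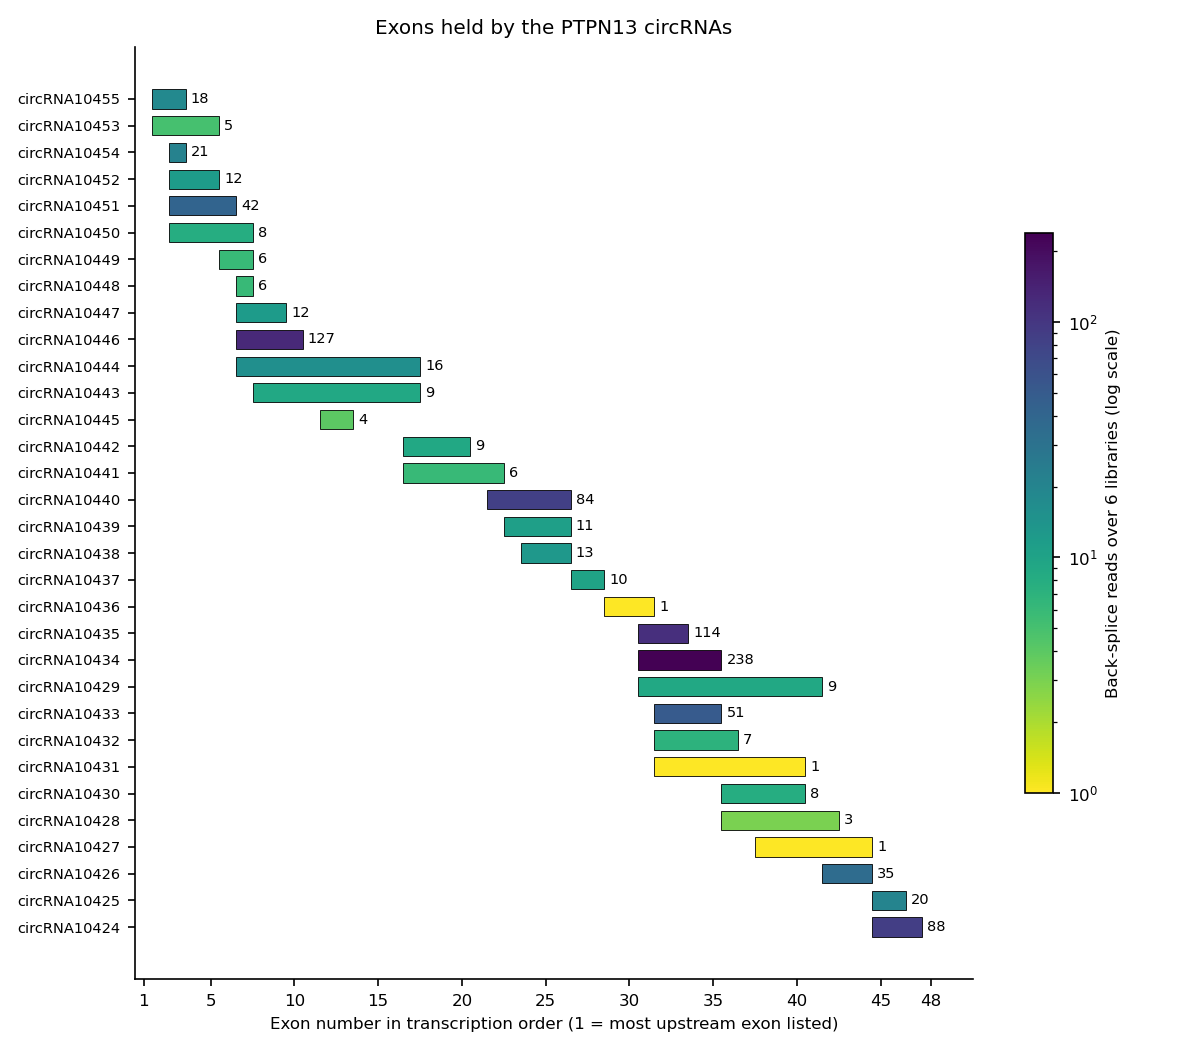
Each bar spans the exons held by 1 of the 32 PTPN13 circRNAs (horizontal axis, exon number; 1 row per circRNA), and its colour and the number beside it give the back-splice reads over the 6 libraries. The darkest bars, circRNA10434 (238 reads), circRNA10446 (127) and circRNA10435 (114), span 5, 4 and 3 exons.

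Acceptor use was more concentrated than donor use. The 32 circRNAs used 18 acceptors and 22 donors, and 10 of the acceptors and 14 of the donors were used by 1 circRNA each. At the other end, 4 acceptors and 2 donors were used by 3 or more. The 3 acceptors with the most reads, those of exons 31, 7 and 45, took 63.3% of the reads (630 of 995). The 3 leading donors, those of exons 35, 10 and 33, took 53.3% (530 reads). Acceptors shared by several circRNAs took 82.5% of the reads and shared donors 54.6%. A back-splice site was used at 32 of the 48 exons, and at 8 of these exons both the acceptor and the donor were used.

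The order of sites over all libraries mostly follows the piglets, which gave 816 of the 995 reads. The acceptor of exon 31 (position 141409344) was the most used start, with 361 reads (36.3%) from 3 circRNAs. It started circRNA10434 (exons 31 to 35), circRNA10435 (exons 31 to 33) and circRNA10429 (exons 31 to 41). The acceptor of exon 7 (141479430) followed with 161 reads (16.2%) from 4 circRNAs, circRNA10448, circRNA10447, circRNA10446 and circRNA10444, which end at exons 7, 9, 10 and 17. The acceptor of exon 45 (141377839) had 108 reads from circRNA10424 and circRNA10425. The acceptor of exon 3 (141514736) was also used by 4 circRNAs, circRNA10454, circRNA10452, circRNA10451 and circRNA10450, with 83 reads together. In Adult-D210 alone it came after exon 31 (60 reads) with 34 reads, ahead of exon 45 (21) and exon 7 (19). The acceptor of exon 32 (141407630) started circRNA10433, circRNA10432 and circRNA10431 with 59 reads. Among the ends, the donor of exon 35 (141404602) had 289 reads (29.0%) from circRNA10434 and circRNA10433. Only the donors of exon 26 (141415791, 108 reads) and exon 7 (141478867, 20 reads) ended 3 circRNAs each.

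Most of the circles lay within one another. Of the 496 pairs of PTPN13 circRNAs, 41 (8.27%) were nested, meaning that 1 circle lay wholly within the genomic span of the other, 36 overlapped in part and 419 did not overlap. In 22 of the nested pairs the circles shared the acceptor, in 12 they shared the donor, and in 7 both ends of the inner circle lay inside the outer one. At least 1 nested pair held 30 of the 32 circRNAs, and the 2 in none, circRNA10437 and circRNA10436, had 11 reads together. The widest nest was that of circRNA10429, which held 6 others and had 9 reads, and circRNA10444 and circRNA10450 each held 5 and had 16 and 8 reads. The 7 circRNAs with 6 or more exons had 45 reads together (4.52%), none more than 16, whereas the 6 with the most reads had 3 to 5 exons each. The 12 circRNAs that held no other took 29.3% of the reads.

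Along the exons, the circRNAs formed 4 groups with no overlap between them. Exons 2 to 26 gave 18 circRNAs and 409 reads (41.1%), exons 27 and 28 gave circRNA10437 alone with 10 reads, exons 29 to 44 gave 11 circRNAs and 468 reads (47.0%), and exons 45 to 47 gave 2 circRNAs and 108 reads. The group of exons 29 to 44 held 50.9%, 45.9% and 42.8% of the gene's reads in the Piglet-D30 libraries. In the Adult-D210 libraries it held 46.6%, 54.9% and 17.1%. Adult-D210 replicate 3 stood apart here, with 6 reads in this group, all of circRNA10435. Exons 32 and 33 were the most covered by the mean of each group and in every library but Adult-D210 replicate 3. In that library they were at 17.1% and exon 3 led at 28.6%. In Adult-D210 replicate 2 exons 34 and 35 tied with them at 43.7%. Exons 32 and 33 lay in circRNAs with 42.4% ± 3.10 (SD, n = 3) of the reads of piglets and 34.0% ± 14.6 (SD, n = 3) of adults. These shares count every annotated exon between the ends as held by the circle, since splicing inside the circles was not measured.

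**Figure D2:**
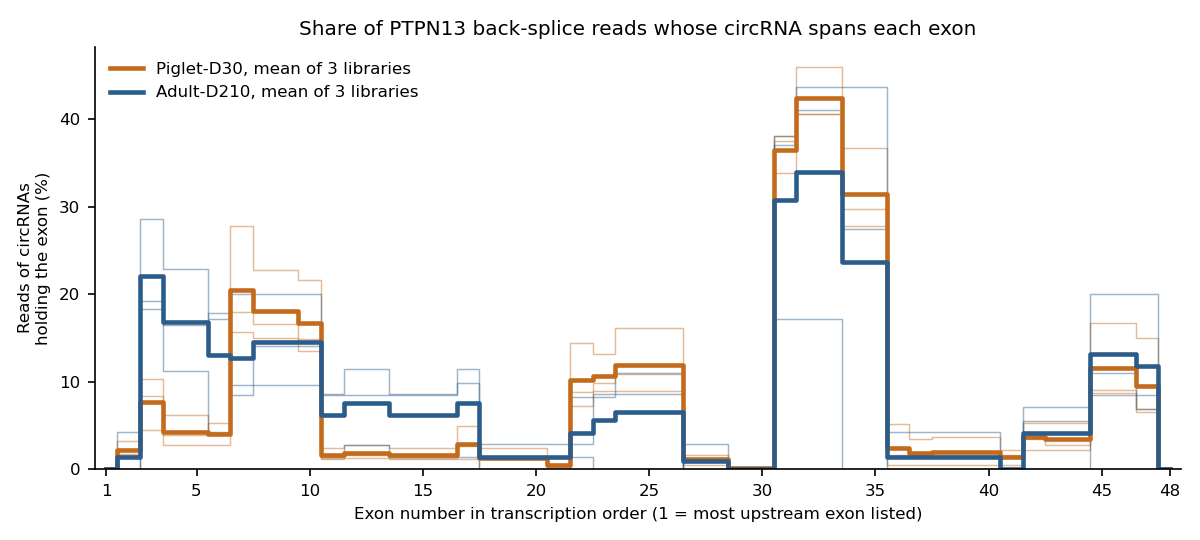
For each exon (horizontal axis) the vertical axis gives the percent of a library's PTPN13 back-splice reads that belong to circRNAs spanning it, with thin lines for single libraries and thick lines for the means of 3. The highest plateau of both means is at exons 32 and 33, and exon 3 lies at 7.69% in Piglet-D30 and 22.0% in Adult-D210.

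A few isoforms carried most of the signal. The 6 circRNAs with the most reads, circRNA10434, circRNA10446, circRNA10435, circRNA10424, circRNA10440 and circRNA10433, held 702 of the 995 reads (70.6%). This order again mostly follows the piglets. In Adult-D210 alone circRNA10434 led with 44 reads, followed by circRNA10451 (21), circRNA10424 (18), circRNA10435 (16) and circRNA10446 (14), while circRNA10433 and circRNA10440 had 7 and 6. At the other end, 15 circRNAs had fewer than 10 reads each and 83 reads together (8.34%). In Piglet-D30 replicate 1 alone were 7 of the 32 found, and 3 had 1 read in all, circRNA10427, circRNA10431 and circRNA10436. The numbers detected were 32, 20 and 17 in the Piglet-D30 libraries, the first of them fixed by how the table was made. They were 14, 14 and 10 in the Adult-D210 libraries. Of the 2552 exonic circRNAs of the table, 1176 and 1247 had a read in Piglet-D30 replicates 2 and 3. In Adult-D210 replicates 1 to 3, 1162, 1055 and 1004 of them had a read. No adult read was found for 11 PTPN13 circRNAs, which had 62 reads in the piglets. Isoforms seen only in adults could not be listed, so this number and the adult counts are limited by the same condition. Only circRNA10446 and circRNA10424 had a read in all 6 libraries.

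The share of the leading isoform, circRNA10434 (141404602 to 141409344), differed more between libraries of an age than between ages. It held 20.4% of the gene's reads in Piglet-D30 replicate 1 (95% Wilson interval 16.8 to 24.6), 33.2% in replicate 2 (27.4 to 39.5) and 19.4% in replicate 3 (14.3 to 25.8). In Adult-D210 it held 23.3% in replicate 1 (15.1 to 34.2), 38.0% in replicate 2 (27.6 to 49.7) and 0% in replicate 3 (0 to 9.89). It was thus the leading isoform in 4 libraries. circRNA10446 led in Piglet-D30 replicate 3 with 20.6%, and circRNA10424 led in Adult-D210 replicate 3 with 20%. The piglet mean was 24.3% ± 7.68 and the adult mean 20.4% ± 19.2 (SD, n = 3). The libraries of a group thus lay further apart than the groups (exact permutation test, two-sided p = 0.9). In this design 0.1 is the smallest p that such a test can give. Without Piglet-D30 replicate 2 or without Adult-D210 replicate 3 the difference changed sign, to 0.520 and 6.32 percentage points higher in the adults.

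The isoforms that followed also changed places between libraries. circRNA10446 (exons 7 to 10) held 11.1%, 13.5% and 20.6% in the Piglet-D30 libraries against 8.22%, 5.63% and 11.4% in the Adult-D210 libraries. circRNA10435 held 16.2%, 3.93% and 12.8% in Piglet-D30 against 13.7%, 0% and 17.1% in Adult-D210. circRNA10424 (exons 45 to 47) held 6.88%, 6.55% and 15.0% in Piglet-D30 against 6.85%, 8.45% and 20% in Adult-D210. For each of these 3 isoforms the ranges of the groups overlapped. circRNA10440 (exons 22 to 26) held 8.60%, 13.1% and 7.22% in Piglet-D30 against 8.22%, 0% and 0% in Adult-D210. circRNA10433 (exons 32 to 35) held 6.14%, 3.06% and 6.67% in Piglet-D30 against 4.11%, 5.63% and 0% in Adult-D210. Both were at 0 in Adult-D210 replicate 3, as circRNA10434 was. circRNA10451 (exons 3 to 6) held 3.19%, 3.49% and 0% in Piglet-D30 against 16.4%, 4.23% and 17.1% in Adult-D210, and every adult share lay above every piglet share. Each of the other 25 circRNAs held no more than 8.57% of a library's PTPN13 reads.

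**Figure D3:**
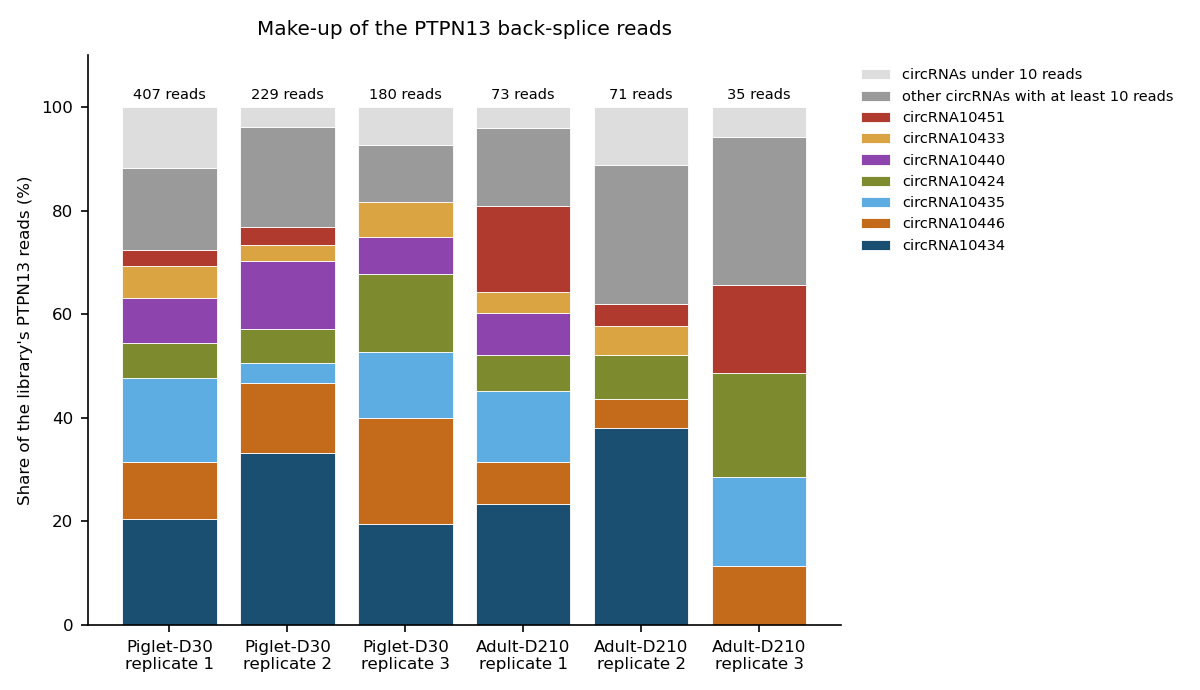
Each bar is 1 library and its segments give the percent of its PTPN13 back-splice reads held by the 7 leading circRNAs, by the 10 others with at least 10 reads and by the 15 under 10 reads. The number above each bar is the library's PTPN13 reads, and circRNA10434 is missing from Adult-D210 replicate 3, where circRNA10451 and circRNA10424 hold 17.1% and 20%.

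At the shared acceptor of exon 31, the split of reads between the donors of exons 33 and 35 was not the same in every library of an age. With 1 library per boar, boar and library preparation cannot be told apart. Of the reads at this acceptor, circRNA10434, the longer circle, had 53.9% of 154 in Piglet-D30 replicate 1 (95% Wilson interval 46 to 61.6), 88.4% of 86 in replicate 2 (79.9 to 93.6) and 57.4% of 61 in replicate 3 (44.9 to 69.0). In Adult-D210 it had 63.0% of 27 reads in replicate 1 (44.2 to 78.5), 100% of 27 in replicate 2 (87.5 to 100) and 0% of 6 in replicate 3 (0 to 39.0). This acceptor was picked after its values were seen, and replicates differed by more than counting error over the whole table, so the spread is not shown to be particular to it. At the acceptor of exon 7, in contrast, circRNA10446 had the larger part in every library, from 57.1% of 7 reads in Adult-D210 replicate 3 to 100% of 6 reads in Adult-D210 replicate 1. At the donor of exon 26, circRNA10440, the longest of 3 nested circles, had 79.5%, 81.1% and 81.3% of 44, 37 and 16 reads in the Piglet-D30 libraries. In Adult-D210 this donor had 8, 0 and 3 reads, and circRNA10440 had 75% of the 8 and 0% of the 3. These reads are too few to compare.

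Use of the acceptor of exon 3 was higher in the adult libraries. It took 7.13%, 6.55% and 2.78% of the gene's reads in Piglet-D30 against 19.2%, 14.1% and 28.6% in Adult-D210, that is 5.48% ± 2.36 (SD, n = 3) and 20.6% ± 7.35 (SD, n = 3). The adult reads behind it were few, 34 against 49 in the piglets, so its share differed while its reads did not rise. Of the 27 PTPN13 back-splice sites with at least 10 reads, 4 had shares that did not overlap between the groups, against 19.9% of 1465 such sites over all host genes, so their number did not set PTPN13 apart. They were the acceptor of exon 3 and the donor of exon 6, higher in Adult-D210, and the donors of exons 7 and 9, lower there. Because these sites were picked after their values were seen, no test was made of them.

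Whether the isoforms were less even in the adults depended on the measure. The effective number of isoforms, the number of equally abundant circRNAs that would give the same concentration of reads (inverse Simpson number), was 9.87, 6.26 and 7.58 in Piglet-D30. It was 7.89, 5.58 and 7.42 in Adult-D210. The ranges overlapped, and the means were 7.90 ± 1.83 and 6.97 ± 1.22 (SD, n = 3; exact permutation test, two-sided p = 0.5). Without Piglet-D30 replicate 1 the difference was 0.0508 in the other direction. The exponential of the Shannon entropy, which gives more weight to isoforms with few reads, was 15.2, 10.1 and 9.98 in Piglet-D30 against 9.95, 9.02 and 8.38 in Adult-D210. On this measure the groups did not overlap, with a difference of −2.62 (exact permutation test with n = 3 and 3, two-sided p = 0.1, the smallest possible). Its highest value was in Piglet-D30 replicate 1, where every listed isoform has a read by how the table was made. Most of the difference rested on that library, since the other piglets, at 10.1 and 9.98, lay close to the highest adult at 9.95. This measure was not corrected for depth. When every library was brought to the 35 reads of the shallowest, 14.2, 11.9 and 11.0 isoforms were expected in Piglet-D30 against 11.5, 12.1 and 10 in Adult-D210 (exact permutation test with n = 3 and 3, two-sided p = 0.5). At this equal depth the piglet mean was still the higher, 12.4 against 11.2, but the ranges overlapped. The higher mean rested mostly on Piglet-D30 replicate 1, since the other piglets, at 11.9 and 11.0, lay within the adult range.

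The make-up of the gene's reads was most alike among piglets. The part of the reads that 2 libraries had in common, summed over isoforms as the smaller of their 2 shares, was 63.0% to 75.7% for the 3 pairs of Piglet-D30 libraries. It was 31.1% to 53.7% for the 3 pairs of Adult-D210 libraries and 30.6% to 73.8% for the 9 pairs across ages. Adult-D210 replicate 1 had 73.8% in common with Piglet-D30 replicate 1, more than with either adult (53.7% and 49.3%), so make-up did not sort the libraries by age. Fewer reads lower this measure by counting error alone, and its part in the lower values of the adults was not tested.

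Shares of isoforms differed between libraries of the same age, whereas the summed level of the gene's listed circRNAs was lower in every adult library. PTPN13 circRNAs without a read in Piglet-D30 replicate 1 could not enter this sum, which limits the adult values in particular. Levels are given as SRPBM, the count divided by the mapped reads of the library, in gigareads, and by the read length of 150 nt. Summed over the 32 circRNAs, SRPBM was 72.6, 35.0 and 27.6 in Piglet-D30 against 9.90, 11.7 and 4.78 in Adult-D210. The groups did not overlap, and the means, 45.1 ± 24.1 and 8.79 ± 3.59 (SD, n = 3), stood at a ratio of 5.13 (exact permutation test, two-sided p = 0.1, the smallest possible). The difference was −36.3 with all libraries and −22.5 without Piglet-D30 replicate 1. As a part of all back-splice reads in the table, PTPN13 made up 1.23%, 1.24% and 0.967% in Piglet-D30 against 0.310%, 0.496% and 0.276% in Adult-D210. Testis was sampled in bulk, so fewer cells that make these circRNAs and fewer circRNAs per cell cannot be told apart.

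**Figure D4:**
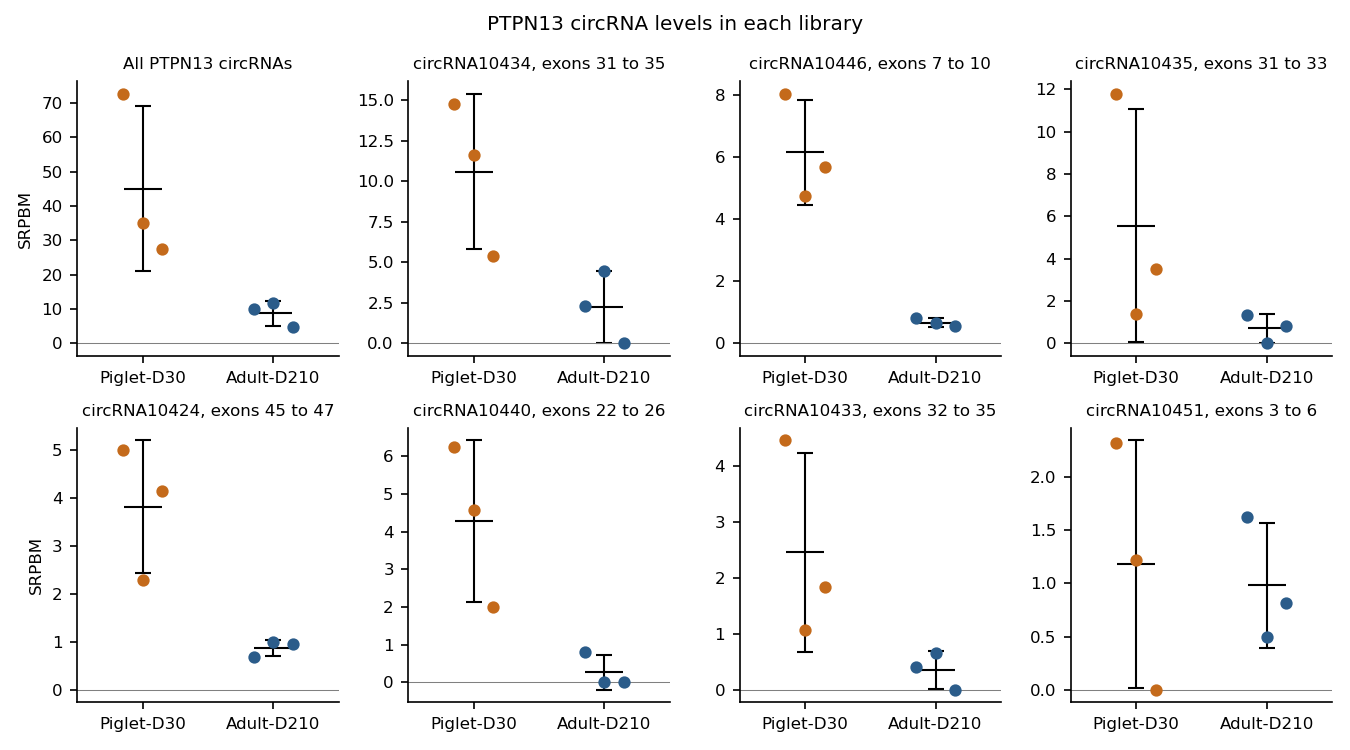
SRPBM in each library (points) with the mean and SD of 3 (bars) for the sum over PTPN13 circRNAs and for the 7 circRNAs with the most reads, each panel with its own axis from 0. Groups are apart for the sum and for every leading circRNA but circRNA10451, which runs from 0 to 2.32 in Piglet-D30 and from 0.494 to 1.63 in Adult-D210.

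Summed over its listed circRNAs, PTPN13 was lower in Adult-D210 at a log2 fold change of −1.56 (standard error, SE, 0.29; edgeR quasi-likelihood, Benjamini-Hochberg adjusted p = 8.83e-05). A host gene was called when the adjusted p was under 0.05 and the log2 fold change at least 1 in size. By this rule 14.6% of the 478 host genes tested were called lower in Adult-D210. PTPN13 was 21st by p, but 125th from the lowest by log2 fold change. Without Piglet-D30 replicate 1 in filter and fit, it was called again at −1.50 (SE 0.33; edgeR adjusted p = 7.04e-05), as were 15.1% of 404 host genes. This refit does not undo the listing, since circRNAs without a read in that library are still absent from the sums. Over all alternatives tried the adjusted p of PTPN13 lay between 2.72e-06 and 0.00431. The median host gene was at −0.32 with the main scaling, the table's read totals adjusted by edgeR's TMM factors. Scaling by mapped reads without these factors moved it to −1.08 and PTPN13 to −2.36.

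Single isoforms were tested where they had at least 10 reads over the 6 libraries, which held for 17 of the 32. Just inside this limit were circRNA10437 (10 reads), circRNA10439 (11), circRNA10447 (12) and circRNA10452 (12), and just outside were circRNA10429, circRNA10442 and circRNA10443 (9 each), circRNA10430 and circRNA10450 (8 each) and circRNA10432 (7). With the same limits on adjusted p and fold change, 2 of the 17 were called lower in Adult-D210, against 4.85% of all 1341 circRNAs tested, and 0 were called higher, against 3.43%. At an unadjusted p under 0.05 there were 7. No share over all circRNAs tested was worked out at that limit, so this number is not shown to set PTPN13 apart. The log2 fold change was negative for 15 of the 17, with a median of −1.79 (−1.59 with circRNA10447, which has no adult read, set at 3 reads per adult library) beside −0.42 over all circRNAs tested. It was −0.42 as well over the 1270 exonic ones among them, which were listed on the same condition as PTPN13's. No share of negative fold changes over all circRNAs tested was worked out, and the 17 isoforms of 1 gene are not independent. Reads in the piglets carried many isoforms past the filter, so these numbers describe the tested isoforms and not all 32. Without Piglet-D30 replicate 1 in filter and fit, 11 isoforms were tested, 1 was called lower, against 3.44% of 1046 circRNAs, and the medians were −1.55 for PTPN13, −0.05 for all and −0.06 for the 986 exonic ones. Scaled by mapped reads, the median of all circRNAs was −0.90, and calls over the table went from 46 higher and 65 lower to 9 higher and 68 lower, while 2 isoforms of PTPN13 were again called.

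circRNA10446 (141457586 to 141479430, exons 7 to 10, 4 exons) was called lower with and without Piglet-D30 replicate 1. It had 45, 31 and 37 reads in the 3 piglets and 6, 4 and 4 in the 3 adults. Its SRPBM was 8.03, 4.74 and 5.68 in the piglets and 0.813, 0.659 and 0.546 in the adults. The means were 6.15 ± 1.70 and 0.673 ± 0.134 (SD, n = 3). The log2 fold change was −2.66 (SE 0.50; edgeR quasi-likelihood, Benjamini-Hochberg adjusted p = 0.00349), and −2.63 (SE 0.50; edgeR adjusted p = 0.0148) without that library. Every adult library lay below every piglet library, and the adjusted p ran from 0.000614 to 0.0378 over the alternatives.

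circRNA10440 (141415791 to 141420967, exons 22 to 26, 5 exons) was called with all 6 libraries but not in every alternative. It had 35, 30 and 13 reads in the 3 piglets and 6, 0 and 0 in the 3 adults. Its mean SRPBM was 4.28 ± 2.14 and 0.271 ± 0.470 (SD, n = 3). The groups did not overlap, and the 6 adult reads were all in replicate 1. The log2 fold change was −3.34 (SE 0.87; edgeR quasi-likelihood, Benjamini-Hochberg adjusted p = 0.0227). The call was lost without Piglet-D30 replicate 1 in filter and fit (log2 fold change −3.20, edgeR adjusted p = 0.0709). It was also lost when Piglet-D30 replicate 1 (−3.21, edgeR adjusted p = 0.0999), Piglet-D30 replicate 2 (−3.11, 0.0767), Adult-D210 replicate 2 (−2.85, 0.0969) or Adult-D210 replicate 3 (−2.90, 0.0732) was left out of the fit alone, and with a replicate block (−3.41, 0.0974). The fold thus stayed near its size in these fits while the adjusted p moved past the limit. Without Adult-D210 replicate 1, which leaves no adult read, the fitted −7.49 is no bound. Over all alternatives the edgeR or DESeq2 adjusted p ran from 0.00284 to 0.0999.

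circRNA10434 itself was not called. It had 83, 76 and 35 reads in the 3 piglets and 17, 27 and 0 in the 3 adults. Its SRPBM was 14.8, 11.6 and 5.37 in the piglets and 2.30, 4.45 and 0 in the adults, so every adult lay below every piglet. The log2 fold change was −1.79 (SE 0.67; edgeR quasi-likelihood, Benjamini-Hochberg adjusted p = 0.131), beside −1.56 for the sum of the gene's listed circRNAs. With 1 library left out it ran from −2.75 (without Adult-D210 replicate 2) to −1.26 (without Adult-D210 replicate 3). It was −1.71 (edgeR adjusted p = 0.245) without Piglet-D30 replicate 1 in filter and fit. The adult value of 0 reads came from the library with the fewest PTPN13 reads.

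Of the other isoforms with many reads, circRNA10435 (141405909 to 141409344) had 66, 9 and 23 reads in the 3 piglets and 10, 0 and 6 in the 3 adults. circRNA10424 (141374276 to 141377839) had 28, 15 and 27 in Piglet-D30 against 5, 6 and 7 in Adult-D210. circRNA10433 (141404602 to 141407630) had 25, 7 and 12 in Piglet-D30 against 3, 4 and 0 in Adult-D210. Their SRPBM did not overlap between the groups, yet none was called, with edgeR quasi-likelihood adjusted p (Benjamini-Hochberg) of 0.0726, 0.0968 and 0.125. Their log2 fold changes were −2.21, −1.59 and −2.24, and −1.39, −1.55 and −1.77 without Piglet-D30 replicate 1 in filter and fit (edgeR adjusted p of 0.337, 0.147 and 0.297). Without a filter on low counts circRNA10434 and circRNA10435 were called too, with adjusted p of 0.00755 and 0.0242 by the same edgeR test, in ranges of 0.00755 to 0.311 and 0.0242 to 0.363 over the alternatives. In all, 9 of the 17 tested isoforms had every piglet SRPBM above every adult SRPBM, against 23.5% of the 1341 circRNAs tested and 24.3% of the exonic ones. Without Piglet-D30 replicate 1 in filter and fit it was 7 of 11, against 27.5% of exonic ones. Some of the 9, such as circRNA10447, circRNA10425 and circRNA10437, passed the read filter through piglet reads, so the filter may add to their number.

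circRNA10447 (exons 7 to 9) was the only tested isoform absent from all adult libraries. It had 6, 4 and 2 reads in Piglet-D30. Against 3 reads per adult library, its SRPBM gives a bound of 1.52-fold lower in Adult-D210, or 1.05-fold without Piglet-D30 replicate 1. Per read of the table the ratio is 0.882, which leaves no bound, so the size of its difference is not known. It shares its acceptor with circRNA10446 and lies within it.

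circRNA10451 (141492955 to 141514736, exons 3 to 6, 4 exons) had the smallest p in the comparison with the gene's tested isoforms together that follows. It had 13, 8 and 0 reads in the 3 piglets and 12, 3 and 6 in the 3 adults. Its SRPBM, 1.18 ± 1.16 and 0.980 ± 0.583 (SD, n = 3), overlapped between the groups, unlike that of the 6 isoforms with more reads. The log2 fold change of 0.33 (SE 0.84; edgeR quasi-likelihood, Benjamini-Hochberg adjusted p = 0.833) turned negative when scaled by mapped reads (−0.19) and without Piglet-D30 replicate 3 (−0.19) or Adult-D210 replicate 1 (−0.03). It was 0.96 without Piglet-D30 replicate 1 in filter and fit. circRNA10452 (exons 3 to 5), which lies within it, had 4, 1 and 0 reads in the 3 piglets and 0, 5 and 2 in the 3 adults.

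Whether isoforms changed unequally with age was tested by setting each against all tested circRNAs of its host gene together (edgeR's diffSpliceDGE). The isoform itself is part of that set, so one with many reads is partly compared with itself. Of the 17 PTPN13 isoforms 0 passed, against 2 of 1105 circRNAs over all host genes (0.181%), and the smallest adjusted p was 0.432 after Benjamini-Hochberg adjustment. At an unadjusted p under 0.05 there was 1, circRNA10451. Its change was 2.14 (SE 0.83) above that of the gene's tested isoforms together on the log2 scale (edgeR adjusted p = 0.432). circRNA10451 was picked by its p, and no share over all circRNAs tested was worked out at that limit. Its difference from the tested isoforms together thus failed the correction, as did that of circRNA10452 (2.63, edgeR adjusted p = 0.658). Without Piglet-D30 replicate 1, 0 of 11 passed, and circRNA10451 was at 2.65 (edgeR adjusted p = 0.300). circRNA10440 and circRNA10446, both called lower between the ages, were at −1.53 and −0.86 against the gene's tested isoforms together. Their adjusted p were 0.739 and 0.817 by the same edgeR test (−1.51 and −0.94 without that library, adjusted p of 0.696 and 0.812). They were thus not shown to differ from the tested isoforms together. Over the gene as a whole, the test of unequal change gave an F of 1.13 (edgeR adjusted p = 0.703 over 265 host genes, and 0.641 over 219 without Piglet-D30 replicate 1). That no isoform passed does not show that isoforms changed alike.

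**Figure D5:**
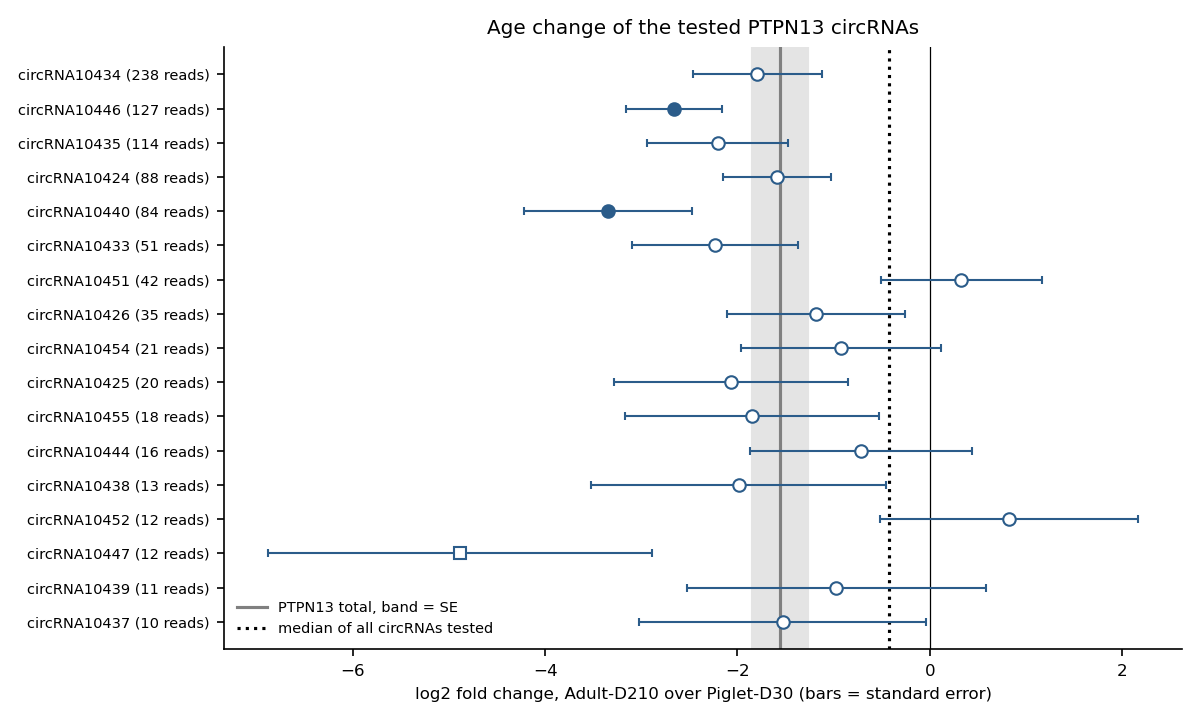
Points give the log2 fold change of Adult-D210 over Piglet-D30 for the 17 tested isoforms (vertical axis, ordered by reads) with standard errors, filled where called, and a square marks circRNA10447, whose fitted value with no adult read is no bound. The grey line and band mark the gene total with its standard error and the dotted line the median of all circRNAs tested, and 15 of the 17 points lie below 0.

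In every library PTPN13 spread its reads over more isoforms than TIAM1 and WDFY3 did, by the effective number. Its leading circRNA held 23.9% of the gene's reads over the 6 libraries and its effective number of isoforms was 9.10. TIAM1 and WDFY3, with 27 circRNAs each, had leading shares of 44.2% and 49.2% and effective numbers of 4.45 and 3.84. By library the effective number ran from 5.58 to 9.87 for PTPN13, from 2.13 to 8.98 for TIAM1 and from 2.49 to 5.91 for WDFY3. The host with the most exonic circRNAs, listed as ENSSSCG00000011340 (SMARCC1), had 43 circRNAs from 13 acceptors and 15 donors, fewer sites than the 18 and 22 of PTPN13, with a leading share of 27.1% and an effective number of 8.91 (6.95 to 10.3 by library), close to that of PTPN13. The log2 fold changes of their totals were 0.10, −0.95 and −0.40 in the same order, and 0.47, −0.82 and −0.41 without Piglet-D30 replicate 1. None was called. The differences between hosts were not tested.

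Within 2 Mb on chromosome 8, 15 other genes had exonic circRNAs and 13 were tested. Of these 4 were called lower (PKD2, ENSSSCG00000009224, ARHGAP24 and CDS1) and 0 higher, against 14.6% lower over all host genes, with a median log2 fold change of −0.95. Without Piglet-D30 replicate 1, which holds 37 of its 55 reads, ENSSSCG00000009224 was not called (−2.03, edgeR adjusted p = 0.225), and the other 3 were. The nearest tested neighbours were ENSSSCG00000009224 on the lower side, at −2.92, and MAPK10 on the upper side, at 0.41 (0.19 without that library) and not called. Over the 6 libraries, the 5 host genes whose summed reads (log2 of reads over table reads, with a prior count of 2) were most like those of PTPN13 among 297 with at least 50 reads were PCCB (Pearson r = 0.995), ENSSSCG00000011340 (0.993), PTPN21 (0.987), EPHA3 (0.969) and CCNI (0.966). These 6 points are 2 age groups of 3, so r mostly reflects a shared difference between them and is given as a description.

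Of 55 other tyrosine phosphatase genes looked up by symbol, 5 had a circRNA in the table and 3 had enough exonic reads to be tested, of which 2 were called lower in Adult-D210, against 14.6% of all host genes tested, and 0 higher. PTPN21, a FERM domain phosphatase like PTPN13, had 70, 26 and 25 reads in the 3 piglets and 6, 7 and 3 in the 3 adults, a log2 fold change of −2.25 (adjusted p = 0.00227, edgeR's quasi-likelihood test), and −1.965 without Piglet-D30 replicate 1 (edgeR adjusted p = 0.0235). PTPRG, a receptor-type phosphatase, had 114, 14 and 24 reads in the 3 piglets and 0, 3 and 1 in the 3 adults, at −4.43 (adjusted p = 7.42e-05, the same test), and −3.45 without Piglet-D30 replicate 1 (edgeR adjusted p = 0.00445). CDC25A, which acts on cyclin-dependent kinases, was not called at −1.04, or at −1.22 without that library. Of 19 genes for partners and substrates of PTPN13, 4 had a circRNA in the table (CTNNB1, ERBB2, NFKBIA and VCP), with 15 reads together, and 0 could be tested.

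The table gave little hold on cell types. Of 61 marker genes of testis cells, 8 had a circRNA in the table and 0 an exonic one. The Leydig cell markers CYP17A1, an enzyme of androgen synthesis and the most abundant of the markers, and STAR had 12, 6 and 4 reads in the 3 piglets and 12, 14 and 16 in the 3 adults. All other markers together had no more than 8 reads per cell type over the 6 libraries, and the 4 endothelial markers had 0. The labelled tissue could therefore not be checked on these reads, and the part of cell make-up in the lower PTPN13 reads was not tested.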

How the data were processed

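The deposited table gives the raw count of back-splice reads of each circRNA per library, and SRPBM, the signal that the authors scaled by mapped reads and read length. The submitters' notes list cutadapt, Bowtie2, TopHat2 and TopHat and the build Sscrofa10.2, and positions are printed as deposited. The members and gene lists were chosen with earlier results of these data known, and overlaps of shares, shares within sites and the count of sites whose shares did not overlap, the comparison with exonic circRNAs alone and values by library of other hosts were added after values were seen. Counts were fitted with edgeR 4.0.16 in R 4.3.3 (TMM, robust quasi-likelihood fit, Benjamini-Hochberg adjustment over all features tested, at least 10 reads over the 6 libraries), and the code was tested on simulated data. DESeq2 1.42.0, mapped reads as library size, other filters, a replicate block and leaving out each library were the alternatives. Acceptors are the upper and donors the lower genomic ends on the minus strand. Exon order came from listed exon counts and flanking introns, joining boundaries within 1000 nt. Host genes were summed over exonic circRNAs. Single values used exact permutation tests in Python 3.11.15 with SciPy 1.17.1. Levels were given for isoforms with at least 10 reads. Pairs of replicates differed beyond Poisson noise (chi-square over degrees of freedom 3.87 to 4.97). Sequences were not analysed.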

Additional observations from a re-analysis of the deposited data

How the results depend on the processing

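The lower total of PTPN13 in Adult-D210 kept its direction and its call in all 12 alternatives (log2 fold change −2.36 to −1.28, and −1.78 to −1.28 with single libraries left out). The difference in summed SRPBM kept its direction in all 7. All of these sums rest on the same listed circRNAs, each with a read in Piglet-D30 replicate 1. In the test of each isoform against the gene's tested isoforms together, 0 passed in all 12. The 2 calls of isoforms between ages became 4 without a filter on low counts, 1 without Piglet-D30 replicate 1 in filter and fit and 1 to 2 with single libraries left out. The replicate numbers did not pair the boars, since same-numbered libraries correlated at 0.05, −0.01 and −0.03, and with the replicate block 1 isoform and the gene total (−1.58) were called. Signs changed for circRNA10451 (0.33 with all libraries, −0.19 with mapped reads, −0.19 without Piglet-D30 replicate 3, −0.03 without Adult-D210 replicate 1, 0.945 and 0.958 without Piglet-D30 replicate 1 in the fit and in filter and fit), circRNA10444 (−0.72 with all, 0.0396 without Adult-D210 replicate 1, down to −1.52) and circRNA10452 (0.83 with all, −0.40 without Adult-D210 replicate 2, up to 2.17). With single libraries left out, the share of circRNA10434 differed by −12.7 to 6.32 percentage points and the effective number by −1.76 to 0.0508 (−0.93 with all). Other measures of it, the exponential of the Shannon entropy and the number of isoforms expected at 35 reads, differed by −2.62 (exact p = 0.1) and −1.17 (exact p = 0.5). Both of these differences rested mostly on Piglet-D30 replicate 1, at 15.2 and 14.2, where every listed isoform has a read. The cause was not tested. Of 191 alternatives of single isoforms, 178 changed neither direction nor call. Only 3 boars per age were sampled, replicates differed beyond Poisson noise, and 3 reads are 8.57% of the 35 in Adult-D210 replicate 3. The lack of a call is not absence of change.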
